A study of Homo sapiens with 6 samples.

Results

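The mitosis genes described here are 47 genes that drive or carry out cell division, from the cyclin-CDK1 switch to the motors and scaffolds of the spindle and the cleavage furrow. They were chosen by gene symbol from the 60748 genes of the deposited RNA-seq table, and all 47 passed the filter on low counts that left 18275 genes for testing. The study compared LX-2FAP cells with LX-2Vector cells, to ask what fibroblast activation protein α (FAPα, encoded by FAP) changes in hepatic stellate cells, with 3 libraries in each group. LX-2 is an established human hepatic stellate cell line.

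Both groups were grown in the same serum-supplemented DMEM and cultured for 24 h before RNA was taken. LX-2FAP cells had been infected with a lentivirus that carried FAPα in the GV367 vector, in which a ubiquitin (Ubi) promoter drives the insert and which also encodes EGFP and puromycin resistance. LX-2Vector cells were the vector control of the same line. Per the study's methods, stably overexpressing clones were selected with puromycin, and how many clones make up each line is not given. Nothing in the labels says that the libraries of a group came from separate cultures, so the p-values below measure the spread between these libraries, which may be technical. Total counts ran from 17355700 to 26352060 per library. FAP had 49, 42 and 55 counts in LX-2Vector replicates 1, 2 and 3 and 14864, 15160 and 14805 counts in LX-2FAP replicates 1, 2 and 3, so that each library matched its label. Among stellate cell markers, VIM stood at 300.8 ± 7.56 FPKM (SD, n = 3; FPKM is a read count scaled by library depth and gene length), TIMP1 at 131.2 ± 1.81 and COL1A1 at 34.3 ± 3.05 in LX-2Vector, while ACTA2 stood at 1.29 ± 0.119, COL1A2 at 0.109 ± 0.0200 and DES at 0.0114 ± 0.0101, and LRAT was listed at 0 in every library. COL3A1 stood at 6.22 ± 0.790, PDGFRB at 3.51 ± 0.321 and RGS5 at 1.49 ± 0.0261 FPKM in LX-2Vector. By the edgeR test described below, COL1A1, COL3A1 and PDGFRB were lower in LX-2FAP (log2 fold changes -0.40, -0.69 and -0.38, adjusted p = 0.0135, 0.00765 and 0.0269). VIM was higher (0.13, edgeR adjusted p = 0.0372). TIMP1, ACTA2, COL1A2 and RGS5 were not called, and DES and LRAT were not tested.

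Mitosis begins when cyclin B-CDK1 becomes active, through removal of inhibitory phosphates by CDC25 phosphatases and with the help of the Aurora and Polo kinases. Chromosomes are then compacted by condensin and topoisomerase II, attached to spindle microtubules at their kinetochores, and held under the spindle checkpoint until the anaphase-promoting complex (APC/C) with CDC20 marks cyclin B and securin for destruction. Most of these genes are transcribed late in the cycle, in G2 and M, so in a bulk culture a change in the share of cells in G2 and M and a change in RNA per cell cannot be told apart.

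The promoters of G2/M genes are known for a short element called CHR (cell cycle genes homology region), bound by MuvB complexes that contain LIN54 and can recruit MYBL2 and FOXM1, and for CCAAT boxes, bound by NF-Y. RefSeq promoter windows (GRCh38.p14, 250 bases before to 50 bases after the start) were present for 41 of the 47 members, 53 windows in all; BIRC5, TTK, BUB3, UBE2C, AURKA and TPX2 had none. CHR letters were searched as TTTGAA on both strands, so also as TTCAAA, and as the palindrome TTCGAA. Other variants, such as TTTAAA, were not searched, so a window without a match may still hold the element. The CCAAT box was searched on both strands of each window. CHR letters were in 36 of the 53 member windows (67.9%), against 16.4% of all 35116 windows of the same length. CCAAT letters were in 37 of the 53 (69.8%), against 34.6% of all windows, and both were in 28 of the 53 (52.8%), against 6.38%. In the member windows, 2 CHR matches overlapped a CCAAT match. Of the windows of members that passed the test described below, 8 of 10 (80.0%) held CHR letters, and of the windows of the other members 28 of 43 (65.1%). CCAAT letters went the other way, in 5 of 10 against 32 of 43 (74.4%), and so did windows with both, 4 of 10 against 24 of 43 (55.8%); none of these differences was tested. These counts describe letters in a window and say nothing of binding.

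The stretches below are the 150 bases that end just before the start site, written 5′ to 3′ on the gene's strand, with CHR and CCAAT letters in capitals. They are shown because they span the range of what the members share, with 5 from genes that rose in LX-2FAP cells and the last from a cyclin gene that did not pass the test. They lie at chr5:69167000-69167149 (plus strand, CCNB1), chr7:36389712-36389861 (plus, ANLN), chr4:17810829-17810978 (plus, NCAPG), chr14:55191586-55191735 (minus, DLGAP5), chr4:103198344-103198493 (minus, CENPE) and chr15:59104996-59105145 (plus, CCNB2), all in GRCh38.p14.
CCNB1: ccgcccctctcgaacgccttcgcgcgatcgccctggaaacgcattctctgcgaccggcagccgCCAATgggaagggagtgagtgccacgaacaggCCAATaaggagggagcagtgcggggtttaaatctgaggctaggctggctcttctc
ANLN: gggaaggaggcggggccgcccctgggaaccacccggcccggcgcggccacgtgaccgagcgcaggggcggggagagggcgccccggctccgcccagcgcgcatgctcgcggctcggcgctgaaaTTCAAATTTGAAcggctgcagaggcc
NCAPG: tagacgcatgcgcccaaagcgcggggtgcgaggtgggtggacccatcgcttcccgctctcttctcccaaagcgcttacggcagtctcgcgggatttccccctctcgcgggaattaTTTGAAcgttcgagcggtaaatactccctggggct
DLGAP5: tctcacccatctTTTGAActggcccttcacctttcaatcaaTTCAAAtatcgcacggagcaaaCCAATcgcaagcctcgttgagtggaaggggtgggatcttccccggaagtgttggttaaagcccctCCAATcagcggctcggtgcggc
CENPE: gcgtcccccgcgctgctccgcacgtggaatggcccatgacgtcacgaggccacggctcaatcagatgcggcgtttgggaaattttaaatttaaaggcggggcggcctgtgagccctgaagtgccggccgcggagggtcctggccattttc
CCNB2: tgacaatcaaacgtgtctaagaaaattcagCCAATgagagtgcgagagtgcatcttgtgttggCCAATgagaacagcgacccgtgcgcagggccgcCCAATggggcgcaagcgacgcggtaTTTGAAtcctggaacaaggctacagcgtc
By the letters searched, the CCNB1 stretch holds CCAAT boxes and no CHR match. Those of ANLN and NCAPG hold CHR letters close to the RefSeq start and no CCAAT box. Those of DLGAP5 and CCNB2 hold both, and that of CENPE holds no match to either. The letters TTTAAA, which were not searched, are in the CCNB1 and CENPE stretches.

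In LX-2FAP cells the mitosis genes stood slightly above their level in LX-2Vector cells, by a small amount in nearly every functional group. Of the 47 members, 10 rose and none fell at an adjusted p under 0.05 (edgeR quasi-likelihood test, adjusted over all 18275 genes): CCNB1, BUB3, CENPE, NUF2, KIF14, ANLN, ASPM, DLGAP5, ECT2 and NCAPG. With library size as the only scaling, 3 rose and 1 fell. The 10 were 21.3% of the members, against 5.29% of all tested genes called in either direction, 2.57% called higher and 2.73% called lower. Members and all tested genes were not matched for read count, on which the power to call a small fold depends. They were also not matched for GC content, with which the fold changes moved, as described below. The median GC content was 43.6% over the members and 48.5% over all tested genes. The members share the same 6 libraries, so their counts are not independent agreement between genes. At an unadjusted p under 0.05, the edgeR test had 30 members higher (10.5% of all tested genes were) and 1 lower (11.6% of all were). In 30 members every LX-2FAP library lay above every LX-2Vector library, a pattern found in 13% of tested genes, and in 1, CDC25B, every LX-2FAP library lay below, as in 13.4% of tested genes. The log2 fold change was above 0 in 44 of the 47 members (39 with library size as the only scaling), against 47% of tested genes, and its median was 0.12 over the members and -0.01 over all tested genes.

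The differences were small. The largest member fold was 1.16, and no member passed the study's cutoff of a fold over 1.2 with an unadjusted p under 0.05, which 7.89% of tested genes passed. Summed over all 47 members, the TMM-normalised level was 9706, 10070 and 10086 CPM (counts scaled to a common library size) in LX-2Vector replicates 1, 2 and 3 and 10720, 10628 and 10831 CPM in LX-2FAP replicates 1, 2 and 3. The 3 LX-2FAP sums were all above the 3 LX-2Vector sums, with a ratio of group means of 1.08. Without TOP2A, the most abundant member, the ratio was also 1.08, and with library size as the only scaling it was 1.06. With 3 libraries against 3, an exact two-sided permutation test cannot give a p below 0.1, and none was run on the sum.

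**Figure D1:**
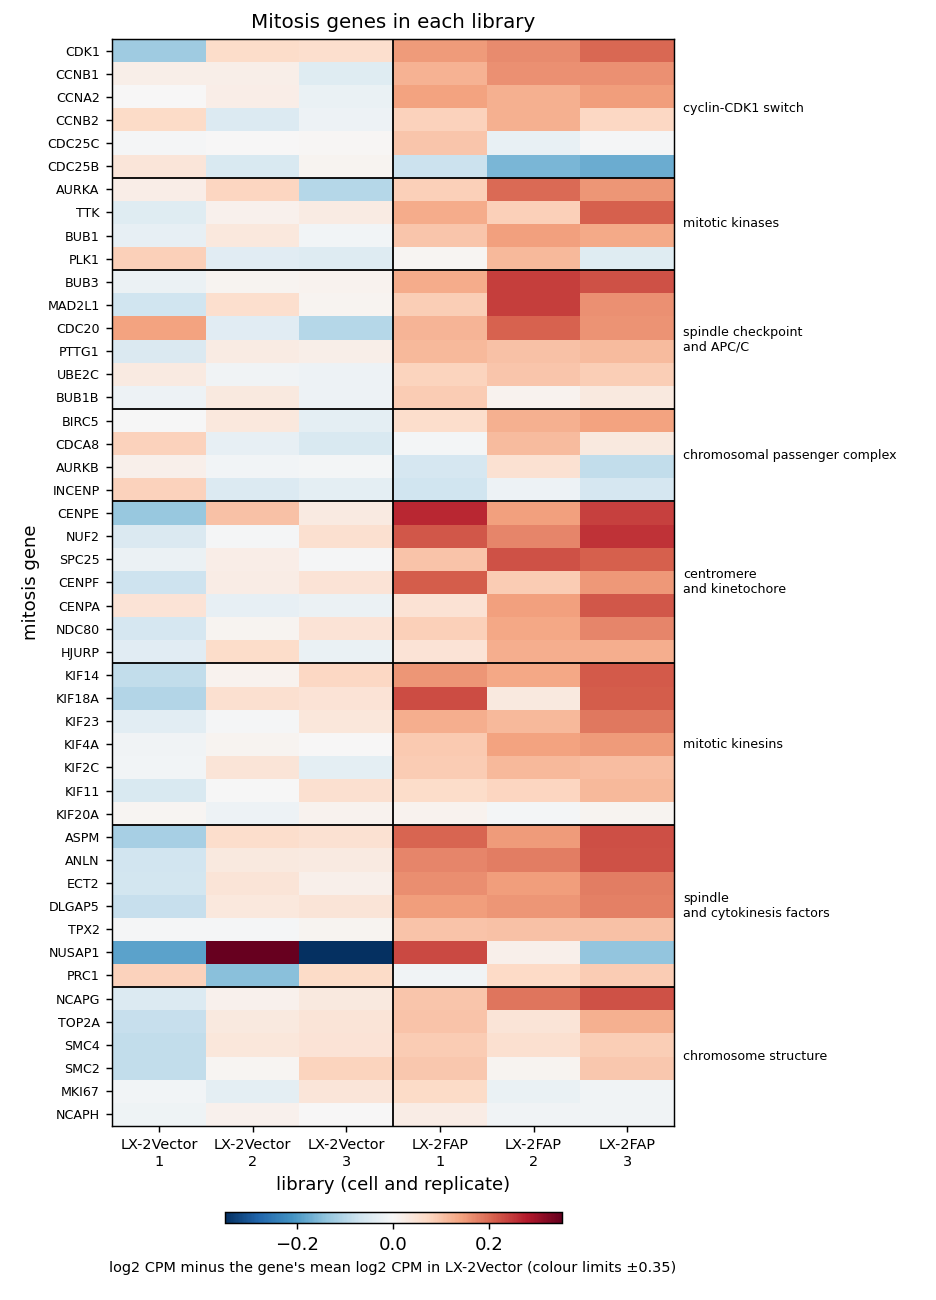
Each row is a mitosis gene, grouped by role, and each column a library; colour gives log2 CPM minus the gene's mean log2 CPM over the 3 LX-2Vector libraries, and NUSAP1 reaches beyond the colour limits. The LX-2FAP columns are mostly red, CDC25B is blue in them, and LX-2Vector replicate 1 is blue for many kinetochore, kinesin, spindle and chromosome genes.

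The libraries of a group were not alike. LX-2Vector replicate 1, the deepest library, was the lowest of all 6 for 27 members, LX-2Vector replicate 3 for 11 and replicate 2 for 5. At the other end, LX-2FAP replicate 3 was the highest of all 6 for 20 members, replicate 2 for 13 and replicate 1 for 11. The count of members called depended on each library. Leaving out LX-2Vector replicate 1, edgeR called 4 members (2.09% of all tested genes), leaving out replicate 2 it called 5 (3.54%) and leaving out replicate 3 it called 5 (2.12%). When LX-2FAP replicate 1 was left out, 18 were called (10.4% of all tested genes). The edgeR fit that omitted LX-2FAP replicate 2 called 0 members (0.687% of all tested genes), with 26 at an unadjusted p under 0.05, 25 of them higher. The one that omitted replicate 3 called 0 (0.138%), with 21 at an unadjusted p under 0.05, 20 of them higher. The share of all tested genes at the unadjusted cutoff was not counted in either fit. Over these 6 fits the median member log2 fold change stayed between 0.11 and 0.14, beside -0.01 over all tested genes in each.

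The cyclin-CDK1 switch has 6 members, of which 1 rose, and 5 of the 6 had a log2 fold change above 0 (with library size as the only scaling, CDC25C was also below 0, at -0.0021). CCNB1 encodes cyclin B1, the partner that activates CDK1 at mitotic entry, and lies at chr5:69167010-69178245 on the plus strand (GRCh38, GENCODE release 29, as for the other genes below). Its level was 374.3, 374.3 and 358.0 CPM in LX-2Vector replicates 1, 2 and 3 and 401.3, 412.2 and 411.9 CPM in LX-2FAP replicates 1, 2 and 3. All LX-2FAP libraries were above all LX-2Vector libraries, and the log2 fold change was 0.15 (SE 0.04, edgeR adjusted p = 0.0356). CDK1, the kinase itself, stood at 128.3, 146.2 and 145.7 CPM in LX-2Vector and 155.0, 156.7 and 160.8 CPM in LX-2FAP. Its log2 fold change of 0.17 (SE 0.05) missed the threshold (edgeR adjusted p = 0.0580), with LX-2Vector replicate 1 well under the other control libraries. CCNA2, cyclin A2, which acts in S phase and early mitosis, stood at 111.4, 113.1 and 109.6 CPM in LX-2Vector and at 122.8, 121.4 and 123.2 CPM in LX-2FAP. The groups did not overlap, and its log2 fold change was 0.14 (SE 0.04, edgeR adjusted p = 0.0585).

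CDC25B, a phosphatase that activates cyclin-CDK1 at the centrosome, was the member with the lowest log2 fold change. It stood at 156.1, 146.0 and 152.4 CPM in LX-2Vector and at 143.6, 135.5 and 134.2 CPM in LX-2FAP, where every library was below every control library. The log2 fold change was -0.14 (SE 0.04, edgeR adjusted p = 0.0792). CDC25B was called lower in a fit scaled by library size alone and in another that left out LX-2FAP replicate 1. The sister phosphatase CDC25C had a log2 fold change of 0.03 (SE 0.05) with overlapping groups, and CCNB2, cyclin B2, one of 0.09 (SE 0.05).

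None of the 4 mitotic kinases passed the edgeR test (3 were higher at an unadjusted p under 0.05, and DESeq2 called BUB1), and the median log2 fold change was 0.13. PLK1, the Polo-like kinase of mitotic entry and cytokinesis, stood at 113.2, 104.1 and 103.5 CPM in LX-2Vector and at 107.3, 115.6 and 103.8 CPM in LX-2FAP. These ranges overlapped, and the log2 fold change was 0.02 (SE 0.05, edgeR adjusted p = 0.841). AURKA, the Aurora kinase of centrosomes and spindle poles, stood at 233.1, 241.9 and 214.2 CPM in LX-2Vector and at 243.2, 263.2 and 255.2 CPM in LX-2FAP. The lowest LX-2FAP library was just above the highest LX-2Vector library, and the log2 fold change was 0.14 (SE 0.05, edgeR adjusted p = 0.0893). TTK (MPS1), which starts checkpoint signalling at the kinetochore, and BUB1, a kinase and scaffold of the same pathway, had log2 fold changes of 0.14 (SE 0.04) and 0.12 (SE 0.04), each with groups that did not overlap.

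Among the 6 spindle checkpoint and APC/C genes 1 rose, and all 6 had a log2 fold change above 0, from 0.05 to 0.20. BUB3, at chr10:123154277-123170467 on the plus strand, brings BUB1 and BUBR1 to kinetochores. It stood at 263.6, 268.8 and 269.4 CPM in LX-2Vector and at 292.5, 316.1 and 311.8 CPM in LX-2FAP. Every LX-2FAP library was above the controls by more than the controls' own range, the log2 fold change was 0.20 (SE 0.04), and the adjusted p was the lowest of all members (edgeR, 0.0152). CDC20, the activator that points the APC/C at cyclin B and securin, stood at 151.0, 133.5 and 127.8 CPM in LX-2Vector and at 148.9, 158.0 and 152.8 CPM in LX-2FAP. LX-2Vector replicate 1 lay within the LX-2FAP range, and the log2 fold change of 0.15 (SE 0.05) did not pass (edgeR adjusted p = 0.106). BUB1B, which encodes the checkpoint protein BUBR1, had overlapping groups, 123.6, 128.1 and 123.5 CPM against 133.0, 126.1 and 128.1 CPM, and a log2 fold change of 0.05 with an SE of 0.04 (adjusted p = 0.562 by edgeR); 10.2% of its exon bases are shared with the readthrough gene BUB1B-PAK6. The others are MAD2L1, the checkpoint protein MAD2, at 0.16 (SE 0.05), securin, PTTG1, at 0.11 (SE 0.04), and the APC/C's ubiquitin-conjugating enzyme UBE2C at 0.09 (SE 0.04), none of which passed the test.

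The chromosomal passenger complex, the Aurora B module that corrects faulty attachments and later marks the cleavage plane, had no called gene among its 4 members (edgeR; 1 was higher at an unadjusted p under 0.05, and DESeq2 called 0), and 2 of the 4 log2 fold changes were below 0. AURKB, its kinase, stood at 68.3, 67.0 and 67.2 CPM in LX-2Vector and at 64.8, 70.1 and 63.6 CPM in LX-2FAP. The LX-2FAP libraries lay on both sides of the controls, and the log2 fold change was -0.03 (SE 0.05, edgeR adjusted p = 0.771). INCENP, its scaffold, stood at 172.4, 157.6 and 159.3 CPM in LX-2Vector and at 155.4, 161.0 and 156.3 CPM in LX-2FAP, a log2 fold change of -0.05 with an SE of 0.04 (adjusted p = 0.543 by edgeR). The other 2, BIRC5 (survivin) and CDCA8 (borealin), had log2 fold changes of 0.11 (SE 0.04) and 0.04 (SE 0.05). The summed level of the 4 genes gave a ratio of LX-2FAP to LX-2Vector of 1.02, and of 0.998 with library size as the only scaling, so its direction turned with the scaling.

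All 7 centromere and kinetochore genes had a log2 fold change above 0, from 0.10 to 0.22, and 2 of them rose. CENPE, at chr4:103105806-103198409 on the minus strand, is the kinetochore motor that carries chromosomes to the spindle equator. It stood at 171.3, 201.7 and 191.9 CPM in LX-2Vector and at 225.5, 207.4 and 221.8 CPM in LX-2FAP. The groups were apart by a narrow margin between LX-2Vector replicate 2 and LX-2FAP replicate 2, and the log2 fold change of 0.22 (SE 0.05; by edgeR the adjusted p = 0.0335) was the largest of all members. NUF2, at chr1:163266576-163355764 on the plus strand, is a subunit of the NDC80 complex that grips microtubules. Its level was 76.2, 78.7 and 82.0 CPM in LX-2Vector and 91.8, 88.8 and 94.0 CPM in LX-2FAP, with a clear gap, and its log2 fold change was 0.21 (SE 0.05, edgeR adjusted p = 0.0186). Its partners in that complex, NDC80 and SPC25, had log2 fold changes of 0.13 (SE 0.04) and 0.18 (SE 0.07), each with groups that did not overlap and neither called. CENPF, a large kinetochore and dynein-linked protein, had one of 0.15 (SE 0.04) and an adjusted p just over the threshold (edgeR, 0.0514). The centromeric histone CENPA and its chaperone HJURP had log2 fold changes of 0.13 (SE 0.06) and 0.10 (SE 0.04), neither called.

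Among the 7 mitotic kinesins 1 rose, and all 7 log2 fold changes were above 0, the lowest being that of KIF20A at 0.0046 (SE 0.04), which turned to -0.02 with library size as the only scaling. KIF14, at chr1:200551497-200620734 on the minus strand, is a motor of the spindle midzone needed for cytokinesis. It stood at 141.5, 151.3 and 157.8 CPM in LX-2Vector and at 166.9, 164.8 and 174.2 CPM in LX-2FAP, with no overlap. Its log2 fold change was 0.17 (SE 0.05), and of the 10 called members it was the nearest to the threshold (edgeR adjusted p = 0.0476). KIF23, a motor of the centralspindlin complex, was the closest member on the other side, at a log2 fold change of 0.14 with an SE of 0.04 (adjusted p = 0.0507 by edgeR). KIF18A, which damps chromosome movements, had 0.17 (SE 0.06), the chromokinesin KIF4A 0.13 (SE 0.04), the microtubule depolymerase KIF2C 0.10 (SE 0.04) and KIF11 (Eg5), which pushes the spindle poles apart, 0.08 (SE 0.04). None of them was called by the edgeR test described above, while DESeq2 called KIF4A. KIF4A shares 4.34% of its 75-base words with KIF4B.

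By the edgeR test described above, the spindle and cytokinesis factors held the most called genes, 4 of 7. This order did not hold with the GC trend removed, as described below. DLGAP5 and ECT2 were then no longer called, and TPX2 was called beside ANLN and ASPM. In the spindle checkpoint and APC/C group, BUB3, CDC20 and UBE2C were called in that fit. ANLN encodes anillin, the scaffold of the contractile ring, at chr7:36389806-36453791 on the plus strand. It stood at 403.5, 433.2 and 432.4 CPM in LX-2Vector and at 476.1, 478.9 and 493.8 CPM in LX-2FAP, and its log2 fold change was 0.19 (SE 0.04, edgeR adjusted p = 0.0162). ECT2, at chr3:172750682-172821474 on the plus strand, is the exchange factor that activates RhoA at the cleavage furrow. Its level was 85.9, 92.5 and 90.9 CPM in LX-2Vector and 100.5, 99.3 and 101.5 CPM in LX-2FAP, a log2 fold change of 0.16 with an SE of 0.04 (adjusted p = 0.0456 by edgeR). ASPM, a spindle pole protein at chr1:197084128-197146694 on the minus strand, stood at 353.2, 399.3 and 396.6 CPM in LX-2Vector and at 440.4, 424.1 and 447.4 CPM in LX-2FAP. Its log2 fold change was 0.19 (SE 0.05, edgeR adjusted p = 0.0306), with LX-2Vector replicate 1 far below the other controls. DLGAP5 (HURP), which stabilises kinetochore fibres and lies at chr14:55148112-55191678 on the minus strand, stood at 189.5, 205.4 and 206.4 CPM in LX-2Vector and at 221.7, 222.7 and 226.3 CPM in LX-2FAP, a log2 fold change of 0.16 with an SE of 0.04 (adjusted p = 0.0436 by edgeR). In all 4 genes the groups did not overlap, and LX-2Vector replicate 1 was the lowest library. TPX2, the activator of Aurora A on spindle microtubules, was very even within each group, at 448.9, 449.3 and 453.2 CPM against 482.3, 483.4 and 483.7 CPM, and its log2 fold change of 0.10 (SE 0.04) did not pass (edgeR adjusted p = 0.103).

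The counts of the 2 remaining genes of that group are uncertain. NUSAP1, a microtubule-bundling protein, and PRC1, the crosslinker of the central spindle, were the lowest members by level per length, at 0.351 ± 0.126 and 0.485 ± 0.0402 FPKM in LX-2Vector (SD, n = 3), while the next lowest, SPC25, stood at 8.80 ± 0.174 FPKM. In the annotation, 62.2% of the exon bases of NUSAP1 are shared with AC087721.2 on the same strand, and 58.4% of those of PRC1 with other genes, chiefly AC068831.7 on the same strand. Their log2 fold changes, 0.04 (SE 0.25) and 0.03 (SE 0.15), had the largest errors of all members. Among the other members, beside NCAPG and BUB1B described with their groups, exon bases shared with another gene made up 25.6% in SMC4, 12.5% in PLK1, 9.08% in CCNA2, 8.78% in CDC25C, 6.96% in CENPA and 5.05% in KIF20A, and less in the rest.

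Of the 6 chromosome structure genes 1 rose, and the median log2 fold change was 0.07. NCAPG, a subunit of condensin I at chr4:17810902-17844862 on the plus strand, stood at 185.1, 193.4 and 195.9 CPM in LX-2Vector and at 204.8, 218.0 and 223.5 CPM in LX-2FAP. The groups did not overlap, and its log2 fold change was 0.17 (SE 0.04, edgeR adjusted p = 0.0356); 33.1% of its exon bases are shared with LCORL on the other strand, whose reads cannot be told from its own if strand was not used in counting. NCAPH, another subunit of the same complex, had a log2 fold change of 0.0013 (SE 0.04), and the condensin ATPases SMC2 and SMC4 had 0.07 (SE 0.05) and 0.08 (SE 0.04). TOP2A, the topoisomerase that untangles sister chromatids, stood at 1049, 1136 and 1146 CPM in LX-2Vector and at 1190, 1145 and 1209 CPM in LX-2FAP. LX-2FAP replicate 2 fell within the control range, and the log2 fold change was 0.09 (SE 0.04, edgeR adjusted p = 0.209). MKI67, the proliferation marker Ki-67 that coats mitotic chromosomes, stood at 784.4, 771.9 and 813.6 CPM in LX-2Vector and at 828.1, 777.0 and 783.2 CPM in LX-2FAP. Those ranges overlapped for the most part, and the log2 fold change was 0.01 (SE 0.04, edgeR adjusted p = 0.905).

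**Figure D2:**
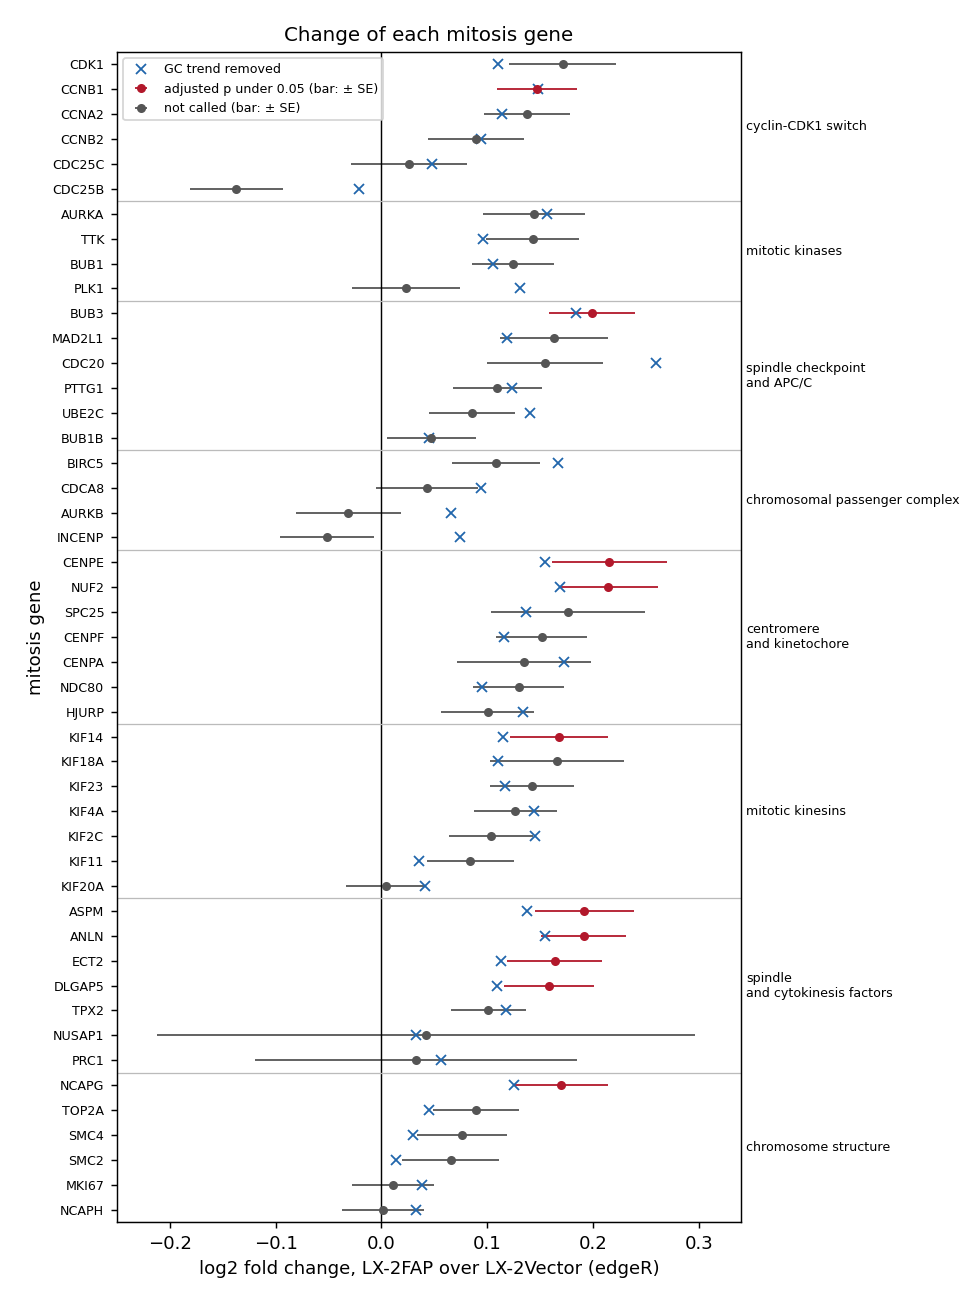
Points give the edgeR log2 fold change of each mitosis gene, LX-2FAP over LX-2Vector, with a bar of ± 1 SE, red where the adjusted p was under 0.05; blue crosses give the value after a smooth trend on GC content was removed from each library. Points lie right of 0 in 44 of 47 genes, and the chromosomal passenger genes AURKB and INCENP move from left to right of 0 with the trend removed.

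By level per length, the members other than NUSAP1 and PRC1 spanned a wide range in LX-2Vector. TOP2A was the highest at 175.6 ± 9.16 FPKM (SD, n = 3), followed by CCNB1 at 152.8 ± 3.72 and TPX2 at 125.9 ± 1.03. Each of these neighbours in the order differed by more than their spreads. In LX-2FAP the same 3 genes stood at 183.1 ± 5.26, 165.9 ± 2.13 and 132.4 ± 0.127 FPKM, in the same order.

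**Figure D3:**
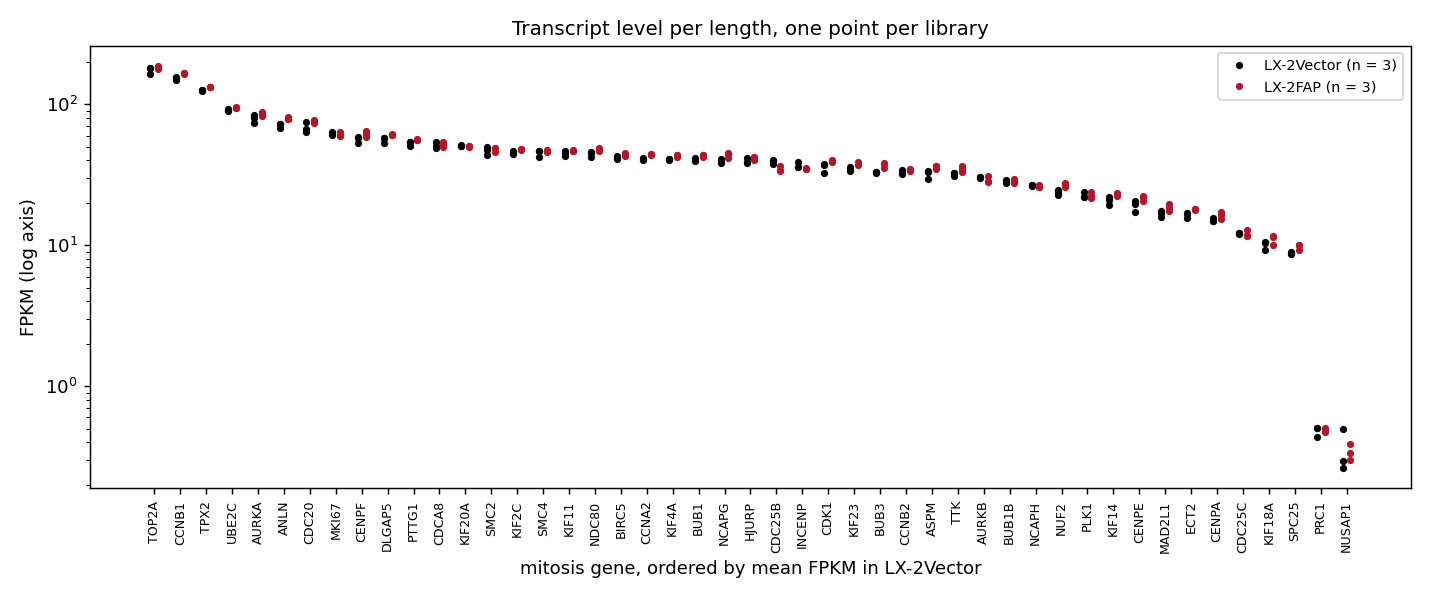
Each point is the FPKM of a mitosis gene in a library, on a log axis, with genes ordered by their mean in the 3 LX-2Vector libraries (black) and the 3 LX-2FAP libraries in red. The points of a gene lie close together across groups, TOP2A is highest at 175.6 FPKM in LX-2Vector, and NUSAP1 and PRC1 stand apart at the bottom.

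The fold changes moved with the GC content of the transcripts. Over all tested genes with a known GC content (98.1%), the median log2 fold change was 0.07 below the first quartile of GC content and -0.11 above the third. The members lay toward the low end, with 22 of 47 under the first quartile (42.9% GC) and 5 over the third (55.8% GC). The 10 called members had a median GC content of 38.7% and the other 37 one of 46.3%. Across the 47 members, which share the same 6 libraries, the log2 fold change and GC content gave a Pearson r of -0.70 and a Spearman rho of -0.65, beside a rho of -0.37 over all tested genes; genes are not independent replicates. The 3 members with a log2 fold change below 0, CDC25B, INCENP and AURKB, had 58.2%, 59.3% and 56.1% GC.

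After a smooth GC trend was removed from each library, the log2 fold change was above 0 in 46 of the 47 members, and the median over the members was 0.11, beside 0.03 over all tested genes. edgeR then called 11 members, all higher, at a rate of 4.39% of tested genes in either direction. Of these, 5 were among the 10 above (ANLN, ASPM, BUB3, CCNB1 and NUF2), and 6 were not (BIRC5, CDC20, KIF2C, KIF4A, TPX2 and UBE2C). CDC20 moved from 0.15 to 0.26 on the log2 scale (edgeR adjusted p = 0.0147 with the trend removed), AURKB from -0.03 to 0.07, INCENP from -0.05 to 0.07 and CDC25B from -0.14 to -0.02. CENPE, DLGAP5, ECT2, KIF14 and NCAPG were no longer called, with log2 fold changes of 0.11 to 0.15. What part the GC trend plays in the difference of any single member was not tested.

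**Figure D4:**
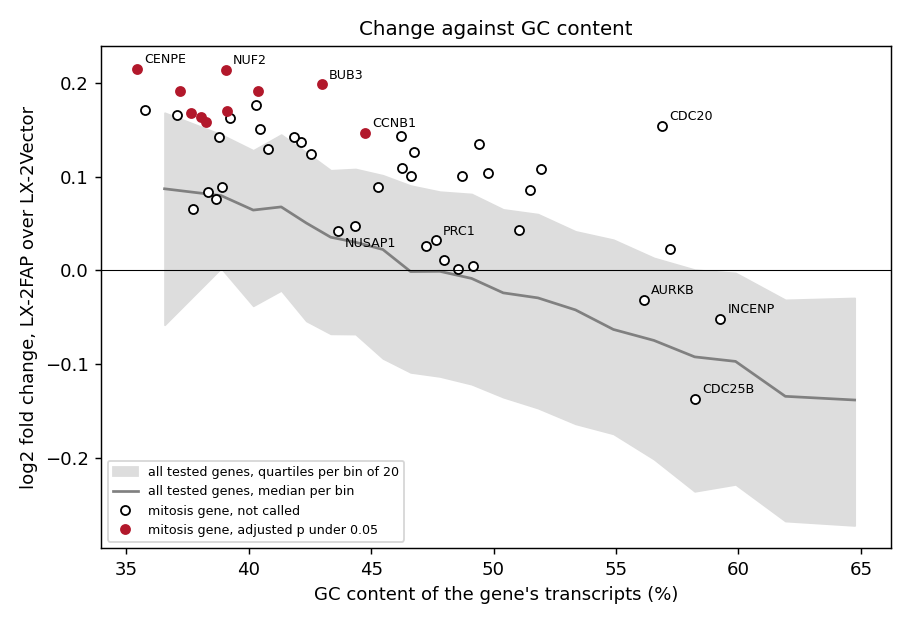
The horizontal axis gives the GC content of a gene's transcripts in percent and the vertical axis its log2 fold change, LX-2FAP over LX-2Vector; the grey line and band are the median and quartiles of all tested genes in 20 bins, and circles are mitosis genes, filled red where the adjusted p was under 0.05. The band falls from left to right, and the red circles sit at its upper edge or above it in the left part, with CDC20 and CDC25B among the few members over 55.8% GC.

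The called members differed in how far the call depended on single libraries. In the 6 fits that each left out a library, ANLN and BUB3 were called in 4, NUF2 and ASPM in 3, CCNB1, CENPE and KIF14 in 2, and NCAPG, DLGAP5 and ECT2 in 1. With the DESeq2 Wald test 16 members were called, all higher and all 10 above among them (5.59% of tested genes). The others were BUB1, CCNA2, CDK1, CENPF, KIF23 and KIF4A. In edgeR, DESeq2 size factors gave 13 members (5.76%), at least 10 counts in every library 11 (6.32%) and no filter on low counts 16 (3.9%). A replicate block gave 11 (5.34%), the GC trend removed together with the block 1 (1.18%), and the gene length trend removed 26 (9.57%). On the deposited FPKM values, limma-trend called 0 members with a pseudocount of 1 (23 at an unadjusted p under 0.05, 22 of them higher). It called 0 with a pseudocount of 0.1 (21 at an unadjusted p under 0.05, 20 of them higher). At either pseudocount it called 2 of all 18275 genes (0.0109%), and their share at the unadjusted cutoff was not counted. Scaled by library size alone, edgeR called 4 members (5.73% of tested genes), of which ANLN, BUB3 and NUF2 were higher and CDC25B lower, and 39 of 47 log2 fold changes were above 0.

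**Figure D5:**
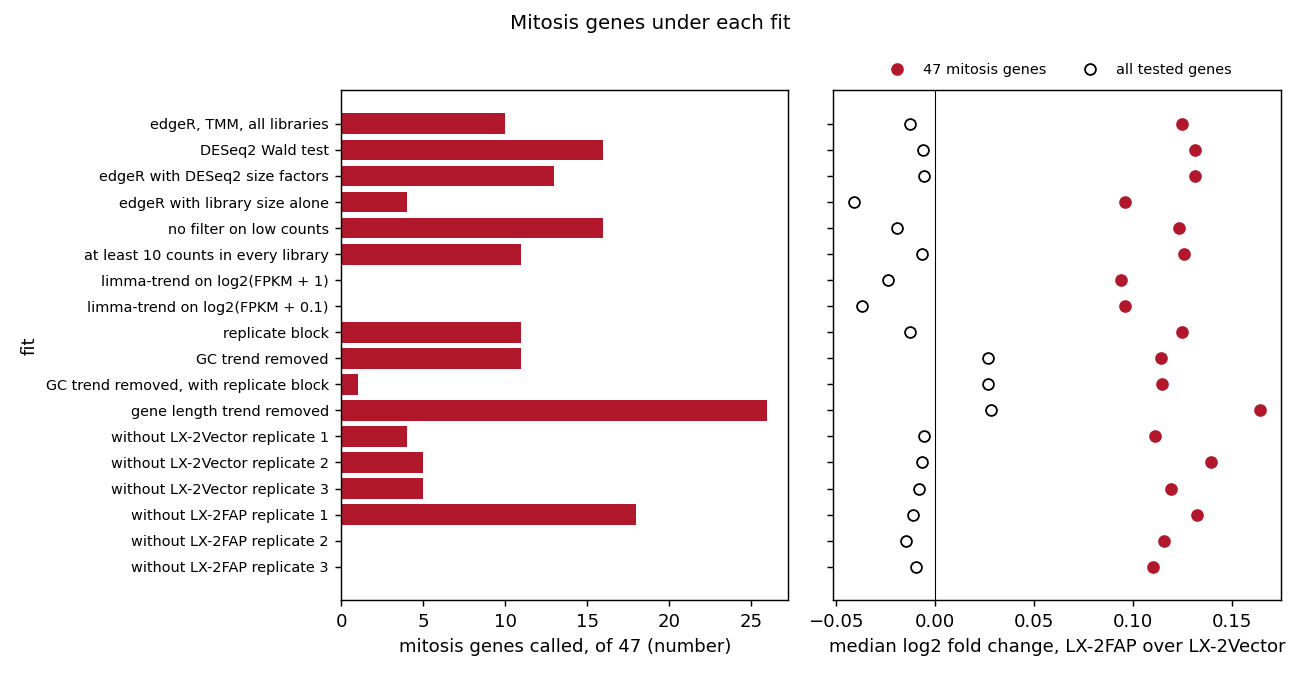
The left panel gives the number of the 47 mitosis genes called under each fit, and the right panel the median log2 fold change, LX-2FAP over LX-2Vector, of the mitosis genes (red) and of all tested genes (open circles). The number called runs from 0 to 26 while the red points stay right of the open circles in every fit.

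Other genes of the cycle, listed by role, moved in both directions. Of 166 tested (1 more, MAD1L1, did not pass the filter on low counts), 19 were called (11.4%), 11 higher and 8 lower. Of all tested genes 5.29% were called, 2.57% higher and 2.73% lower. The lists were not matched to all tested genes for read count or GC content. The share called was 17.5% of other spindle and cytokinesis genes, 11.1% of APC/C genes and 6.90% of other kinetochore subunits. Among other spindle and cytokinesis genes 7 of 40 rose and none fell (3 were lower at an unadjusted p under 0.05): HMMR, a microtubule-binding protein of spindle assembly, at a log2 fold change of 0.21 (SE 0.04), the mitotic kinase PBK at 0.20 (SE 0.05), the kinesin KIF20B at 0.19 (SE 0.05), the microtubule-associated CKAP2 at 0.18 (SE 0.04) and CKAP2L at 0.17 (SE 0.04), SGO2, a protector of centromeric cohesion, at 0.17 (SE 0.05), and CDCA2, a phosphatase subunit of mitotic exit, at 0.16 (SE 0.04). Among other kinetochore subunits 2 of 29 rose, CENPN at 0.22 (SE 0.06) and KNL1 at 0.15 (SE 0.04). Of the APC/C subunits and regulators 2 of 18 rose, ANAPC13 at 0.22 (SE 0.05) and CDC27 at 0.15 (SE 0.04). None of the 14 other condensin and cohesin subunits was called by edgeR (2 were higher at an unadjusted p under 0.05), and the median over them was 0.06.

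The transcription regulators and S phase genes that passed the test were lower in LX-2FAP. Of 19 transcription regulators of the G2/M genes, 2 fell (10.5%, against 2.73% of all tested genes called lower). MYBL2 (B-MYB), which binds MuvB at CHR promoters, stood at 93.8, 84.2 and 95.6 CPM in LX-2Vector and at 83.4, 73.1 and 69.8 CPM in LX-2FAP, with a log2 difference of -0.27 (SE 0.06; adjusted p = 0.0252 by edgeR). E2F1, the factor that starts S phase transcription, fell by 0.20 on the log2 scale (SE 0.05, edgeR adjusted p = 0.0359). FOXM1, the other activator of late cell cycle genes, had overlapping groups and a log2 fold change of -0.05 with an SE of 0.04 (adjusted p = 0.530 by edgeR).

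Among 35 S phase genes, 5 fell (14.3%, against 2.73% of all tested genes called lower) and none rose (0 were higher at an unadjusted p under 0.05). The median log2 fold change was -0.04. Those that fell were the helicase subunit MCM7 at -0.27 (SE 0.07), DNA ligase LIG1 at -0.26 (SE 0.06), the polymerase subunits POLD1 at -0.23 (SE 0.06) and POLE at -0.20 (SE 0.06), and thymidine kinase TK1 at -0.19 (SE 0.04). Summed over the 35 genes, the ratio of LX-2FAP to LX-2Vector was 0.955, beside 1.08 for the mitosis genes. These 5 genes, MYBL2 and E2F1 were rich in GC, from 55.5% in POLE to 64.8% in POLD1, and with the GC trend removed their edgeR adjusted p ran from 0.110 in LIG1 to 0.578 in E2F1. Of the 11 higher genes of these lists, HMMR, PBK, CKAP2L, CDCA2, CENPN and ANAPC13 were still called with the GC trend removed.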

How the data were processed

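RNA-seq was done on 6 libraries of LX-2 cells, 3 LX-2Vector and 3 LX-2FAP, grouped and numbered by their titles. The labels describe ribosomal RNA depletion, and the study's methods also name poly(A) isolation. The authors aligned reads with HISAT2 2.0.5 and deposited featureCounts 1.5.0-p3 counts per gene, not normalized, and, derived by the authors from these and from gene lengths, FPKM values. The submitters' processing notes name hg18, but the table holds Ensembl identifiers without coordinates, so gene positions and exon overlaps were looked up by identifier in GENCODE release 29 (GRCh38), which held 58337 of 60605 identifiers. Only 13 of the 47 members had the gene length of that release, and neither the annotation release nor the use of strand is given in the sources used here.

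Counts were tested with edgeR 4.0.16 (quasi-likelihood test, TMM, minimum count of 10 and minimum total of 15, no covariate), with Benjamini-Hochberg adjustment over 18275 genes and calls at an adjusted p under 0.05. Tests were two-sided, and the procedure was tested on simulated data. The simulated counts held known changes but no GC trend and no link between genes. They therefore cannot show how such features move the calls. Alternatives were DESeq2 1.42.0, other scalings and filters, limma-trend (limma 3.58.1) on log2 FPKM with a pseudocount of 1 or 0.1, a block for the replicate number, loess correction of each library for GC content or gene length (span 0.5), and leaving out each library. The members, the lists and the alternatives were chosen with earlier results of these data known. Genes named are FAP, the called members, 10 well known members whatever their result (CCNA2, CCNB1, CDK1, PLK1, AURKA, AURKB, CDC20, BUB1B, TOP2A and MKI67), the 3 highest and 3 lowest by log2 fold change, the highest and lowest by FPKM in LX-2Vector, and called genes of the other cell cycle lists, of which 1 is counted but not reported here; other members are named by role group, and FOXM1 and the cell type markers were named outside that rule. Hepatocyte, endothelial, leukocyte and epithelial markers were all at or below 0.592 FPKM in LX-2Vector. No pair of libraries in a group agreed within sampling noise (chi-square over its degrees of freedom 2.06 to 5.02).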

Additional observations from a re-analysis of the deposited data

How the results depend on the processing

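The mitosis genes stayed above all tested genes in median log2 fold change under every alternative run, but how many passed the threshold did not hold. The count of members called was 16 with DESeq2 (16 higher), 16 with no filter on low counts (16 higher), 26 with the gene length trend removed (26 higher), 4 with library size alone (3 higher and 1 lower), 1 with the GC trend removed and a replicate block (1 higher) and 0 with limma-trend at either pseudocount (0 higher). Leaving out each library in turn gave 0 to 18 called, 0 to 17 higher, 0 to 1 lower, 0 to 1 past the study's cutoff (1 without LX-2Vector replicate 2) and 0 to 29 of the other cell cycle genes (3, 10 and 8 without LX-2Vector replicates 1, 2 and 3, and 29, 1 and 0 without LX-2FAP replicates 1, 2 and 3). Those other genes numbered 30 called with the length trend removed (9.57% of all tested genes) and 10 with the GC trend removed (4.39%). They numbered 0 with the GC trend removed and a block (1.18%) and 0 with limma-trend (0.0109%). The fits that each left out a library called from 0.138% to 10.4% of all tested genes. The cause of these changes was not tested. FAP kept its direction and its call under all of them, at log2 fold changes from 6.27 to 8.45.

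Small values near 0 turned in sign. The log2 fold change of PLK1 was -0.0052 with library size alone, -0.0025 and -0.0026 with limma-trend (pseudocounts of 1 and 0.1), and from -0.019 to 0.069 when a library was left out. That of MKI67 was -0.018 with library size alone, -0.017 and -0.018 with limma-trend, and from -0.016 to 0.040 when a library was left out. NUSAP1 was at -0.0067 and -0.00071 with limma-trend and from -0.10 to 0.32 when a library was left out. AURKB was at 0.066 with the GC trend removed, 0.065 with a block added and 0.0069 with the length trend removed, and INCENP at 0.074 with the GC trend removed and 0.074 with a block added. None of these values passed the threshold.

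The labels number the replicates of both groups alike. Same-numbered libraries deviated from their group means with correlations of -0.14, 0.20 and -0.08 over 11440 genes. Differently numbered pairs ran from -0.36 (LX-2Vector replicate 3 with LX-2FAP replicate 2) to 0.38 (LX-2Vector replicate 3 with LX-2FAP replicate 1). Deviations within a group of 3 libraries depend on each other, so these values cannot settle whether same-numbered libraries belong together. With the replicate block 11 members were called, of which 9 were among the 10. The smallest difference these 3 against 3 libraries can resolve is set by the spread between replicates, and for NUSAP1 and PRC1 also by counts of few reads.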
